A study of Mus musculus with 35 samples.

Results

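Fibroblasts of resting mouse paw skin were compared with the other 2 cell populations isolated from the same tissue, immune cells and keratinocytes, to find the genes that were highest in fibroblasts against each of them. The fibroblasts were represented by 8 of the 35 RNA-seq libraries of the study, all from vehicle-injected mice, and they were chosen by their labels (cell population and treatment), not by any measured value. They were set against 8 immune and 7 keratinocyte libraries from vehicle-injected mice. The remaining 12 libraries came from male mice given the chemotherapy drug paclitaxel and were not used here.

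All mice were of strain C57, aged 8 to 16 weeks, and the tissue was hind paw skin that had been turned into a suspension of cells before the populations were isolated. The fibroblast group held 4 female and 4 male libraries of cells labelled Col+/TdT, from Col1a2-cre-ER/tdTom mice, in which a Cre named for the collagen gene Col1a2 marks cells with the red protein tdTomato. The immune group held 4 female and 4 male libraries of CD45+ cells from wild-type mice, and the keratinocyte group held 4 female and 3 male libraries of K5+/TdT cells from K5-cre-ER/tdTom mice, in which the Cre is named for keratin 5. Genotype therefore differed together with the population, and the 2 cannot be told apart. The sources used here do not give the identity of the vehicle, the induction of the Cre, or whether cells of several mice were pooled. The labels number the libraries of a group without saying that each came from another mouse, so every p-value measures only the spread between these libraries, which may be technical.

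Dermal fibroblasts make the connective tissue of the skin: they secrete the collagens, proteoglycans and elastic fibre proteins of the dermis together with the enzymes that fold, crosslink and degrade them. They also release growth factors, chemokines and complement proteins that act on neighbouring epidermal, immune, vascular and nerve cells. Fibroblasts also keep expressing homeobox transcription factors that differ with their place in the body, a pattern set during development.

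The fibroblast libraries held 14946878 to 20809036 counts in genes, the immune libraries 14437683 to 18979776, and the keratinocyte libraries 6518070 to 11115207 except for 1 of 988712 (female 2). Between 7010 (male 1) and 10724 genes had more than 10 counts in a fibroblast library, and Spearman's rho between pairs of fibroblast libraries ran from 0.733 to 0.847. The summed level of 15 fibroblast markers was 140300 to 240800 CPM (counts per fixed library size, with library sizes scaled by TMM, the trimmed mean of M values) in fibroblasts, 645.4 to 1233 in immune females, 10910 to 20300 in immune males and 544.4 to 1518 in keratinocytes. Every immune male library thus held more fibroblast marker RNA than any immune female library. The basal keratin Krt14 also had a mean of 450.2 CPM in immune males against 26.3 in immune females. Immune male 4 had the highest sum of basal keratinocyte markers among immune libraries, 2629 CPM, against 92.14 to 570.8 in the other immune males. The part of such RNA in the fibroblast to immune differences was not tested, and the immune means are given by sex below and the counts are repeated with female libraries alone. In these bulk libraries, fewer cells that express a gene and less of its RNA per cell cannot be told apart.

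Markers of immune cells and keratinocytes were low in the fibroblast libraries, and those of some other cell types were not. The summed level of 17 pan-immune markers was 697.5 to 1112 CPM there, against 12290 to 14260 in immune females. The 12 basal keratinocyte markers summed to 116.5 to 569.7 CPM, against 15580 to 25380 in keratinocytes. The 12 mast cell markers summed to 9.342 to 58.75 CPM, and 12 skeletal muscle markers to 0.7567 to 195.2 CPM. The 16 endothelial markers summed to 319.1 to 918.3 CPM in fibroblasts and 1351 to 4393 in immune cells. Their defining genes Vwf, Kdr and Cldn5 had medians of 0, 0 and 0 CPM in fibroblasts, and Tek, an angiopoietin receptor, had a median of 262 CPM. In immune males, 10 adipocyte markers summed to 373.1 to 2932 CPM and the skeletal muscle markers to 35.85 to 1314. In immune females the same 2 sums were 159.5 to 244.5 and 27.19 to 57.73 CPM. The 14 Schwann cell markers summed to 1064 to 2340 CPM in fibroblasts, 1107 to 2151 in immune cells and 9.906 to 172.0 in keratinocytes. Most of that sum was Pmp22, a myelin protein also made elsewhere, with a fibroblast median of 1171 CPM, while the defining gene Sox10 had a median of 0. The list's Gldn and Scn7a were called higher than both. The 12 pericyte and smooth muscle markers summed to 143.7 to 1332 CPM in fibroblasts, 203.3 to 2584 in immune cells and 44.19 to 1119 in keratinocytes, and Abcc9, a subunit of potassium channels, was called higher than both. The part of such cells in the results was not tested.

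The 3 markers of the population were high in every fibroblast library. Col1a2, which encodes a chain of type I collagen, measured 8133 CPM in the lowest, 10260 in the median and 14880 in the highest fibroblast library, against a mean of 19.4 in immune females, 843 in immune males, and 0.908 to 25.8 in keratinocytes. Dcn, the small proteoglycan decorin that binds collagen fibrils, had 23860, 29830 and 50460 CPM at the same 3 points, with 124 and 2616 in immune females and males and 54 to 1168 in keratinocytes. Dpt, the matrix protein dermatopontin, had 805, 1144 and 1371 CPM, with 2.78 and 166 in immune females and males and at most 0.679 in keratinocytes. For all 3 genes, the lowest fibroblast library lay above every other library. The log2 fold change of fibroblasts over immune cells was 6.40 ± 0.42 (SE) for Col1a2, 5.76 ± 0.52 for Dcn and 5.68 ± 0.50 for Dpt, and over keratinocytes 11.57 ± 0.58, 6.48 ± 0.59 and 13.20 ± 0.79 (adjusted p at most 7.04e-09 in edgeR's quasi-likelihood test). With female libraries alone, the log2 difference from immune cells was 9.06 for Col1a2, 7.79 for Dcn and 8.60 for Dpt. Limma voom with sample quality weights gave Col1a2 about the same log2 differences but no call (adjusted p = 0.105 against immune cells and 0.514 against keratinocytes), nor one for Dcn against keratinocytes (adjusted p = 0.107).

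**Figure D1:**
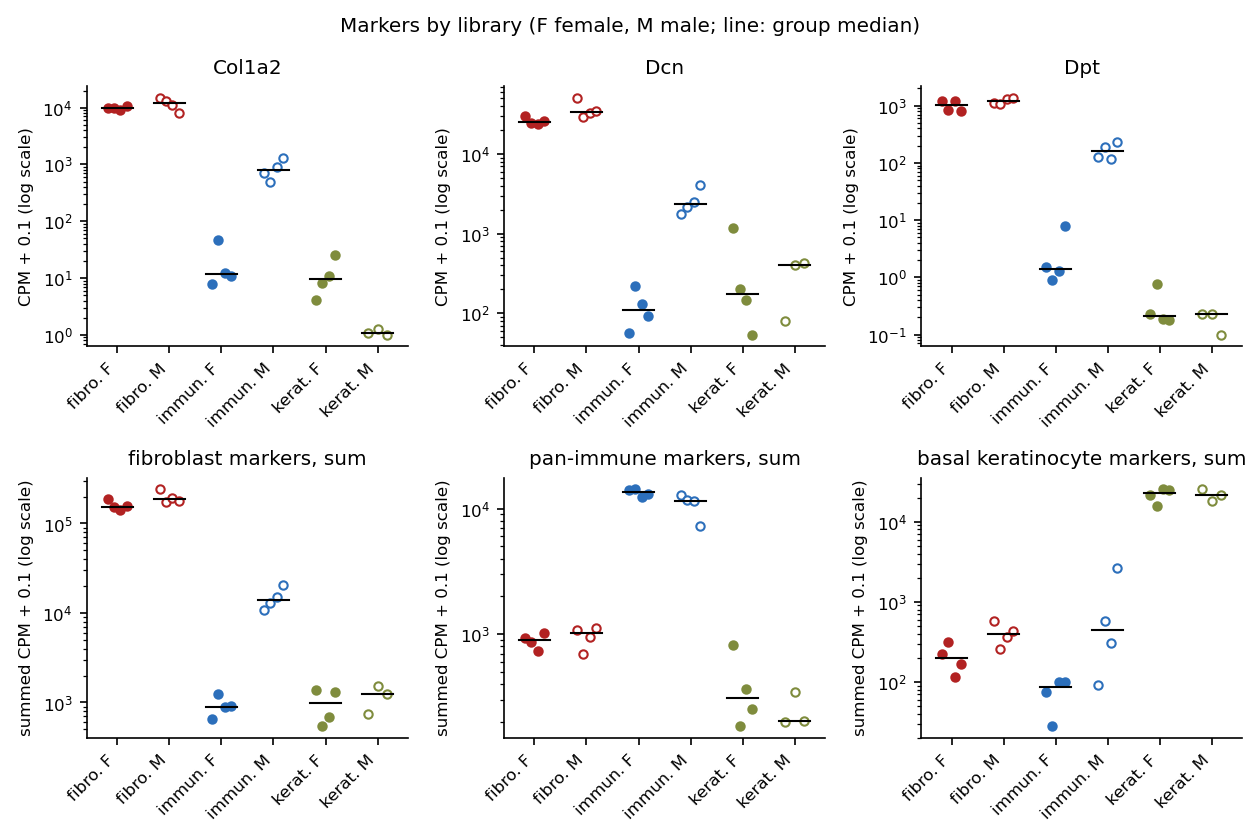
Level of Col1a2, Dcn and Dpt (upper panels) and summed level of fibroblast, pan-immune and basal keratinocyte markers (lower panels) in each of the 23 vehicle libraries, with CPM + 0.1 on a log scale (y axis), population and sex on the x axis, 1 point per library and a line at the group median. The 8 fibroblast points of each gene in the upper panels lie above all other points, and the 4 immune male libraries lie above the 4 immune female ones.

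The sequence upstream of Col1a2 is shown because this gene both marks these cells and gives its name to the Cre that labels them. The 250 bases before its start, from RefSeq on build GRCm38.p6 (chr6:4505368-4505617, plus strand), are printed 5′ to 3′ with the motif matches found in them in capitals.

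Col1a2: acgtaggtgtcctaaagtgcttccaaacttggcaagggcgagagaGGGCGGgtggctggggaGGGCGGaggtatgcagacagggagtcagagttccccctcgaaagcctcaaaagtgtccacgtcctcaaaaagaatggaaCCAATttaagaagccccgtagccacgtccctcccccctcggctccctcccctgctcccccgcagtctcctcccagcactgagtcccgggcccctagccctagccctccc

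The capitals mark GGGCGG (the GC box) at 205 to 200 and at 188 to 183 bases before the start, and CCAAT (the CCAAT box) at 109 to 105, each as read on this strand, with no overlap between matches. Both strands were searched, also for TATAAA and TGACTCA, whose letters are not in this window. Among 27025 promoters of the same length, 32.7% held GGGCGG, 34.2% CCAAT, 12.9% TATAAA and 4.47% TGACTCA on either strand. A match is a description of the letters only. The promoters of Col1a1, Dcn and Lum are not in the table used, which held 66.8% of the genes called higher than both populations, so no share over those genes is given.

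Of 14104 genes tested, 1116 (7.91%) were higher in fibroblasts than in immune cells and 1869 (13.3%) were lower, at an adjusted p under 0.05. Against keratinocytes, 2908 (20.6%) were higher and 1477 (10.5%) were lower. The 2 comparisons share the fibroblast libraries. They had in common 765 genes (5.42%) called higher in fibroblasts than in both other populations, and 509 (3.61%) called lower than in both. In 378 genes (2.68%), all 8 fibroblast libraries lay above all 15 others, and 331 of these were called higher than both. The median log2 fold change over all genes tested was -0.05 against immune cells and 0.40 against keratinocytes. Among the 765 genes it was 5.53 and 9.12, and 723 of them were at least 4-fold higher in both comparisons. A total of 155 had no count in any keratinocyte library and 23 had none in any immune library. These 2 numbers are not alike in depth: keratinocyte libraries held 988712 to 11115207 counts and immune libraries 14437683 to 18979776. The share of all genes tested without such a count is not given here, so neither number is read as a result.

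Single genes varied widely between fibroblast libraries. Of the 765 genes, 601 had a count in all 8 fibroblast libraries and 482 had more than 10 counts in each. Among the 601, the highest library exceeded the lowest by a median of 5.53-fold, and 154 genes stayed within 3-fold. Male 1 was the lowest library for 129 of the 601 genes and male 3 for 44, and between 25 (male 2) and 64 (male 4) of the 765 genes had no count in a given library. Leaving out fibroblast males 1 and 4 gave 637 genes called higher than both, of which 623 were among the 765. With female libraries alone, which removes the immune males, 400 genes were called, of which 385 were among the 765. With male libraries alone there were 179, of which 172 were, and pooling the sexes within each population gave 442, of which 439 were. Other methods called more genes, 964 with DESeq2, of which 722 were among the 765, and 1105 with limma voom, of which 654 were.

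**Figure D2:**
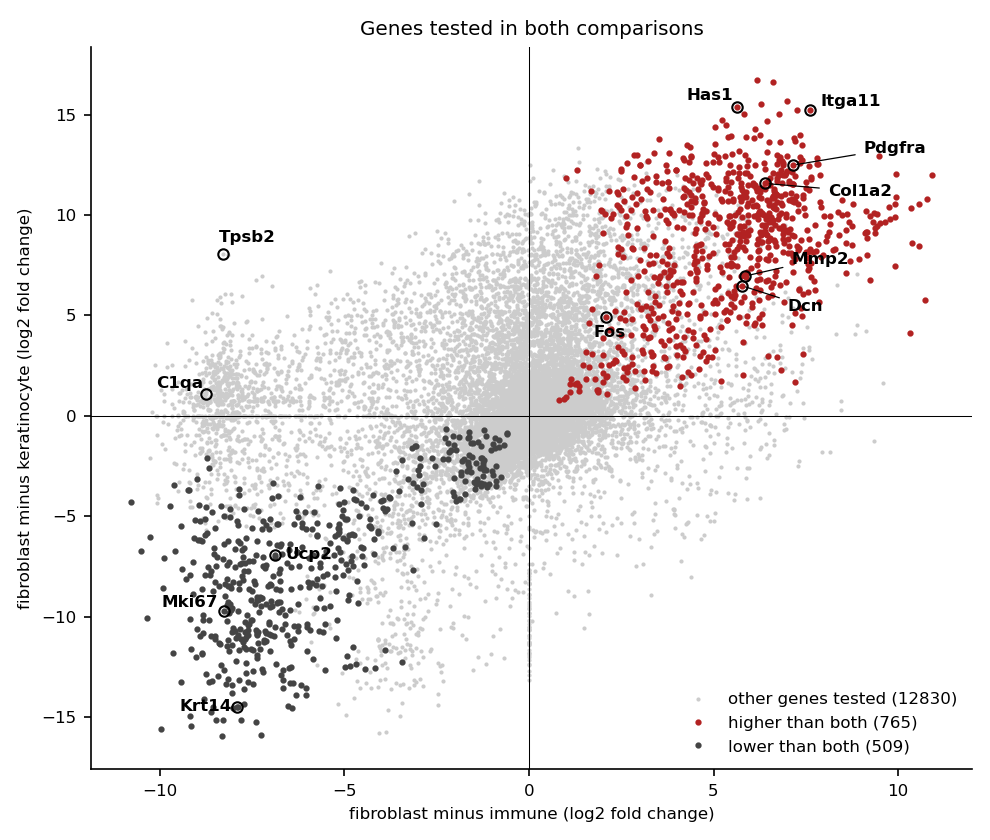
Log2 fold change of fibroblasts over immune cells (x axis) and over keratinocytes (y axis), 1 point per gene tested, for the 14104 genes, with the 765 called higher than both in red and the 509 called lower than both in dark grey. Named genes are circled, and Fos lies much closer to the origin than Col1a2 or Pdgfra. Values of genes with no count in a population depend on the small count added in the fit.

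The 20 genes that stood furthest above both populations, led by Xpnpep2, are of several kinds. They were the genes called higher in both comparisons with the largest smaller fold change, a fibroblast mean of 50 CPM or more and all 8 fibroblast libraries above all others. Their log2 fold changes over immune cells ran from 7.13 to 9.48. Xpnpep2, a membrane aminopeptidase, had 27.6 CPM in the lowest, 77.8 in the median and 112 in the highest fibroblast library. It had no count in any immune female or keratinocyte library and a mean of 1.06 CPM in immune males. Its log2 fold change over immune cells was 9.48 ± 1.66 (adjusted p = 0.000461), and it was at least 131-fold higher than in keratinocytes, counted against a floor of 3 counts per library. Keratinocyte female 2, with the fewest counts, raises the mean floor, and without it every such bound over keratinocytes was 1.88 times as high.

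Several of the 20 genes are parts of the matrix or hold cells to it. Lama2, the laminin chain of mesenchymal basement membranes, had 483 to 1388 CPM (median 692) in fibroblasts, a mean of 0.833 in immune females and 20.4 in immune males, and at most 0.391 in keratinocytes, with log2 fold changes of 7.63 ± 0.57 and 11.87 ± 0.77. Itga11, the alpha subunit of a collagen-binding integrin, had 167 to 768 CPM (median 259), 0.198 and 15 in immune females and males, and no keratinocyte count, which makes it at least 655-fold higher there. Neither gene overlapped between fibroblasts and any other library, which the choice of the 20 genes required. Podn, the small leucine-rich proteoglycan podocan, had 487 to 1705 CPM in fibroblasts and up to 28.2 in keratinocytes, and Mrc2, a receptor that takes up collagen, had 146 to 365 CPM and up to 89.1 in keratinocytes. Their keratinocyte medians were 0.173 and 0 CPM, and by the same rule of choice neither gene overlapped between the populations. With the sexes pooled or with females alone, Mrc2 missed the call against keratinocytes (adjusted p = 0.0546 and 0.194).

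Signalling genes among the 20 included a growth factor receptor and 3 secreted ligands. Pdgfra, the receptor of platelet-derived growth factor that marks fibroblasts across tissues, had 559.7 to 1561 CPM (median 941) in fibroblasts, means of 0.918 and 45.2 in immune females and males, and at most 1.36 in keratinocytes (7.14 ± 0.53 and 12.48 ± 0.75). Gdf10, a secreted factor of the bone morphogenetic protein family, had 449 to 2070 CPM (median 675), with 3 counts in all keratinocyte libraries together, a ratio of 19700 with a 95% counting interval of 6740 to 95500. Inhba, the subunit of activin A, had 28.8 to 209 CPM and no keratinocyte count. Slit3, a guidance ligand for growing axons, had 378 to 1482 CPM with the highest value in male 1. As the choice of the 20 genes required, all 4 were lower in every immune and keratinocyte library than in the lowest fibroblast library.

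Regulators of RNA and transcription made up a further group of the 20. Osr2, a zinc finger transcription factor of limb and palate mesenchyme, had 165 to 447 CPM in fibroblasts, a mean of 0.152 in immune females and 15.7 in immune males, and 1 count over all keratinocyte libraries. Bicc1, an RNA-binding protein, had 254 to 839.6 CPM and no keratinocyte count (at least 668-fold higher). Larp6, which binds type I collagen messenger RNAs, had 41.2 to 467 CPM, with log2 fold changes of 7.13 ± 1.34 and 9.86 ± 1.75. The remaining genes of the 20 were Thsd7a, Dclk1, Fam198a, Fam171b, Scarf2, Pcdh18, Ccdc48 and Scg3, with fibroblast medians from 42.4 (Fam198a) to 186 CPM (Scg3) and log2 fold changes over immune cells from 7.16 to 7.88. With female libraries alone, the log2 difference from immune cells among the 20 genes ranged from 8.12 (Ccdc48) to 12.82 (Xpnpep2), and all 20 were called. Against keratinocytes, that fit did not call Dclk1 and Larp6 (adjusted p = 0.151 and 0.0989), nor Mrc2 as given above. With male libraries alone, Xpnpep2, Podn, Fam198a and Ccdc48 were among those not called against immune cells (adjusted p = 0.128, 0.0526, 0.189 and 0.0575).

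**Figure D3:**
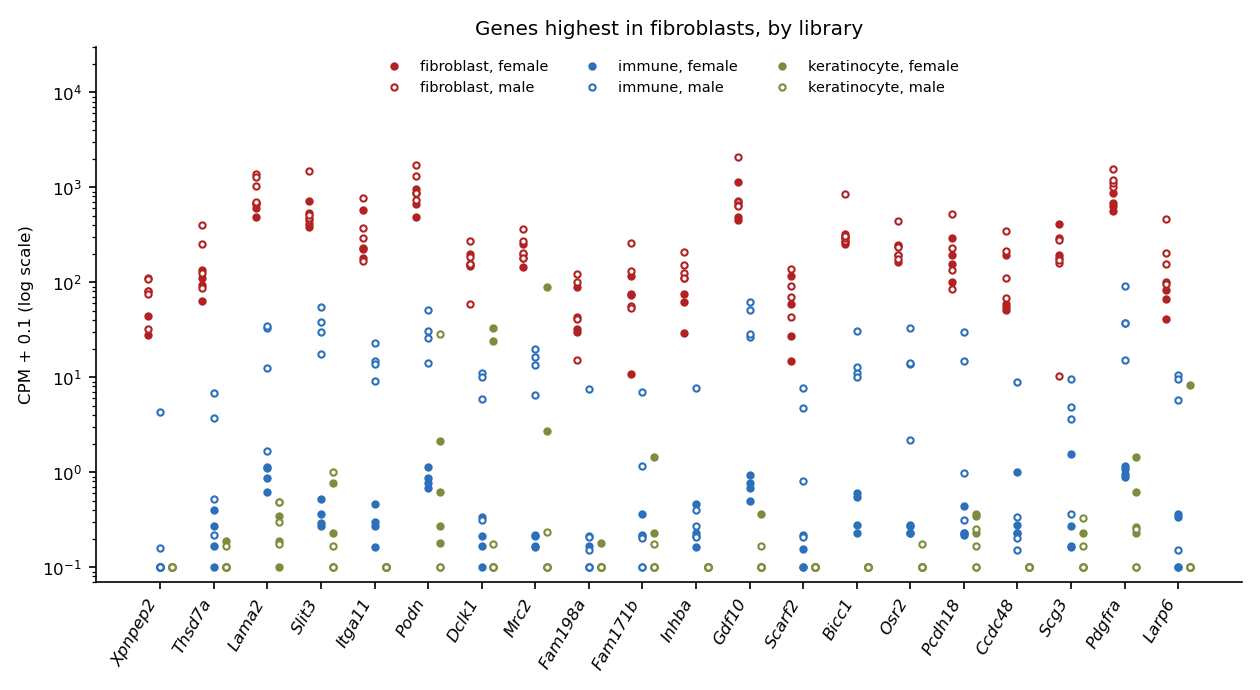
Level of the 20 genes (x axis) in each vehicle library (y axis, CPM + 0.1, log scale), with points coloured by population, filled for females and open for males. The 8 fibroblast points of every gene lie above all others, because the genes were chosen so. The immune male points lie between the fibroblasts and the immune females for most genes.

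The wider gene groups of the fibroblast were described from lists of genes by function. The count called higher than both in each list stands against the 5.42% of all genes, and its median against the medians of -0.05 and 0.40 over all genes. Of all genes, 3.61% were lower than both, 7.91% higher and 13.3% lower than in immune cells, and 20.6% higher and 10.5% lower than in keratinocytes. All 8 fibroblast libraries lay above all others in 2.68% of all genes. Members that did not pass the filter on low counts are part of the list size only. A value written with ± is a log2 fold change with its SE, over immune cells first and over keratinocytes second where a pair is given.

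Collagens that form fibrils were high. Of 11 fibrillar collagens, 10 passed the filter on low counts, and 8 of these were higher than both. The list's median log2 fold change was 6.17 over immune cells (6.00 with genes at 0 set to their bound) and 9.16 over keratinocytes. Col3a1, the type III chain of pliable tissue, had 12150 to 23270 CPM (median 17230) in fibroblasts and means of 34.3 and 1534 in immune females and males. Col1a1, the main type I chain, had 7400 to 15870 CPM (median 10990), with 26.8 and 1042. Col5a2, a type V chain that joins type I fibrils, had 1200 to 1827 CPM, with 1.98 and 158. In each of these genes no other library reached the lowest fibroblast value, and the log2 fold changes over keratinocytes were 11.14 ± 1.05, 10.43 ± 1.12 and 11.28 ± 0.82. Limma voom did not call Col3a1 (adjusted p = 0.143 and 0.625) or Col1a1 (adjusted p = 0.223 and 0.66) in either comparison. Col11a1, a minor fibrillar chain, was near 0 in 1 fibroblast library (0.103 CPM) but had a median of 47.4, against at most 0.172 in immune cells (10.37 ± 1.74).

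Collagens outside the fibrils were more mixed. Of 21 tested of 29, 10 were higher than both and 1 was lower than both (4.76%, against 3.61% of all genes). The list's median log2 fold change was 4.68 over immune cells and 4.97 over keratinocytes. The 3 chains of type VI collagen, which forms beaded filaments around cells, all belonged to the 10. Col6a1 had 2617 to 4601 CPM, Col6a2 1419 to 2599 and Col6a3 234 to 760.4, against means of 12.8, 6.86 and 0.706 in immune females. Col15a1, of the zone beneath basement membranes, had a fibroblast median of 77.2 CPM and Col14a1, which decorates fibrils, one of 338. The lower member was Col17a1, the hemidesmosome collagen of basal keratinocytes, at 0 to 12.4 CPM in fibroblasts and 1417 to 3592 in keratinocytes. Col17a1 was not called against immune cells by limma voom (adjusted p = 0.178).

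Enzymes that fold, trim and crosslink collagen were higher than both populations in 13 of 27 tested genes of 31, and none was lower than either. Their median log2 fold change was 4.16 over immune cells and 7.45 over keratinocytes (5.37 with genes at 0 set to their bound). Pcolce, which speeds the removal of the procollagen C-terminal propeptide, had 1238 to 2899 CPM, with 17.9 and 222 in immune females and males and at most 1.36 in keratinocytes (4.79 ± 0.45 and 12.02 ± 0.70). Adamts2, which removes the N-terminal propeptide, had 357 to 2004 CPM. Loxl1, a lysyl oxidase that crosslinks elastic fibres, had 404 to 913 CPM. None of these 3 genes overlapped between fibroblasts and the other libraries. The chaperone Fkbp10 had 88.4 to 336 CPM, and immune males reached 88.7, so that its ranges overlapped. Pooling the sexes ended its call against immune cells (adjusted p = 0.178).

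Small leucine-rich and other proteoglycans were higher than both in 15 of 19 tested members of 26, with a median log2 fold change of 5.32 over immune cells and 7.84 over keratinocytes (6.89 with genes at 0 set to their bound). Lum, the fibril-spacing proteoglycan lumican, had 1505 to 3329 CPM (median 1961), with 6.78 and 113 in immune females and males and a keratinocyte median of 1.13. Fmod, fibromodulin, which is abundant in tendon as well as skin, had 266 to 6235 CPM (median 2721) and at most 81.3 in immune cells. Both separated fibroblasts from all other libraries, although the Fmod levels of the fibroblast libraries themselves were far more spread. Limma voom did not call Fmod (adjusted p = 0.136 and 0.519). Srgn, the granule proteoglycan of blood cells, was lower than in immune cells, at 0.944 to 34.1 CPM against 401 to 1251.

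Elastic fibre and microfibril genes were higher than both in 13 of 22 tested members of 23 (median log2 fold change 5.22 over immune cells (5.06 with genes at 0 set to their bound) and 5.23 over keratinocytes). Fbn1, the main microfibril protein fibrillin, had 1177 to 1732 CPM, with means of 1.43 and 132 in immune females and males. Fbln2, which links microfibrils to other matrix, had 1769 to 5219 CPM, and Mfap5, a microfibril-associated glycoprotein, had 522 to 814. All 3 lay above every other library. Mmrn2, a vascular matrix protein, was lower than in immune cells (-6.24 ± 1.90, adjusted p = 0.0207), a call that the fit with pooled sexes did not make (adjusted p = 0.305) and that was lost without fibroblast males 1 and 4 (adjusted p = 0.0867).

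Matrix glycoproteins were higher than both in 31 of 42 tested members of 44. In 21 of the 42 all fibroblast libraries lay above all others, against 2.68% of all genes. The list's log2 fold changes had a median of 4.90 over immune cells and 5.17 over keratinocytes. Svep1, a large adhesion protein of connective tissue, had 298 to 774 CPM (7.03 ± 0.84 and 9.14 ± 1.04). Tnn, the tenascin of connective tissue at sites of bone and hair growth, had a fibroblast median of 30.9 CPM but no count in at least 1 library. The laminin chains Lamb3 and Lama3 belong to the laminin that keratinocytes lay under the epidermis. Lamb3 had no count in any fibroblast library and 0.521 to 480.4 CPM in keratinocytes, at least 902-fold lower in fibroblasts. Lama3 was lower than in keratinocytes (-4.93 ± 1.55, adjusted p = 0.0187), and leaving out fibroblast males 1 and 4 ended that call (adjusted p = 0.0906).

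**Figure D4:**
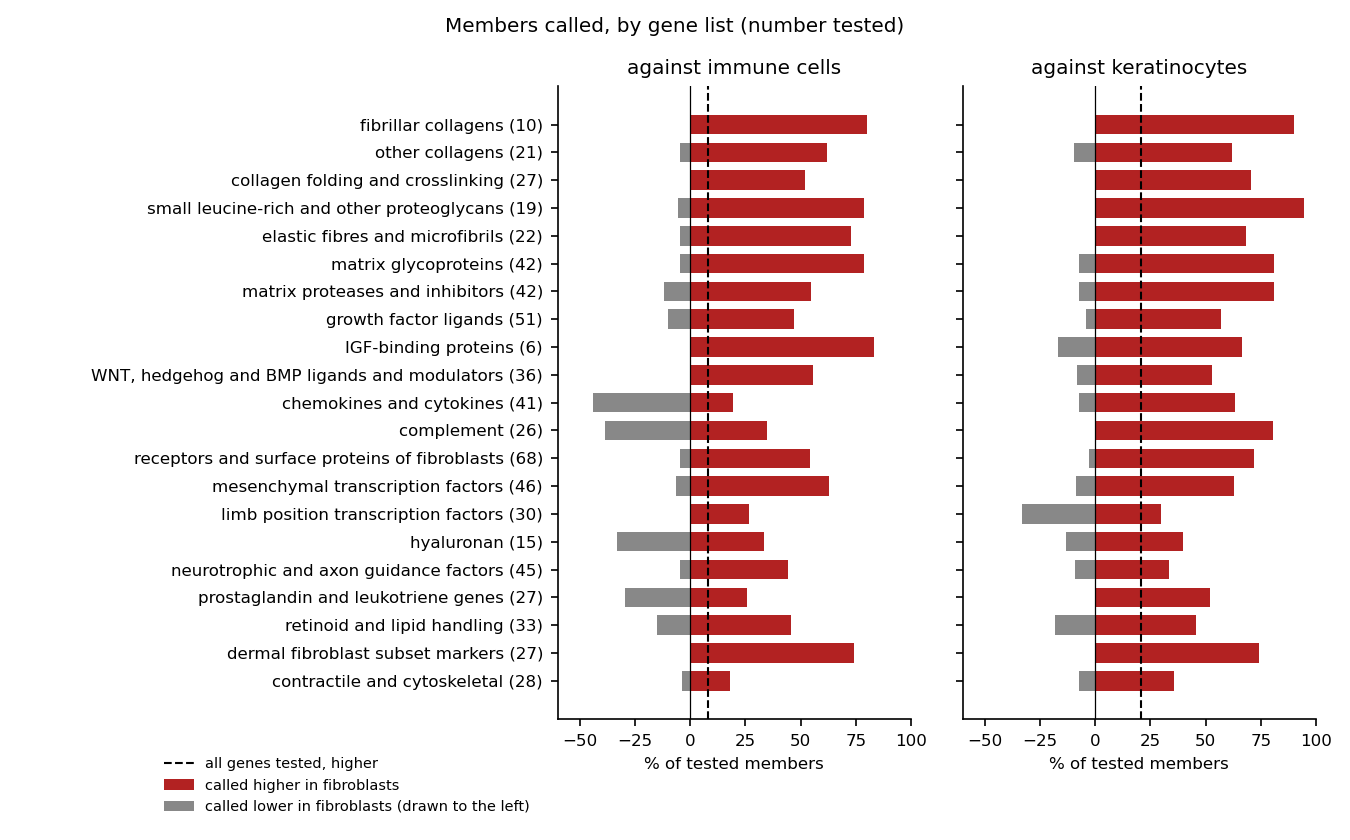
Share of the tested members of each gene list called higher (red bars to the right) or lower (grey bars to the left) in fibroblasts (x axis, %), with a dashed line at the share of all genes tested that was called higher, against immune cells in the left panel and against keratinocytes in the right panel. Fibrillar collagens (80.0% and 90.0%) and proteoglycans (78.9% and 94.7%) extend far to the right in both panels, while chemokines (43.9%) and complement (38.5%) extend to the left against immune cells.

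Matrix proteases and their inhibitors were higher than both in 23 of 42 tested genes of 45. Lower than both were 2 (4.76%, against 3.61% of all genes). The list's median log2 fold change was 2.94 over immune cells and 7.42 over keratinocytes (6.94 with genes at 0 set to their bound). Mmp2, the gelatinase that cleaves denatured collagen, had 5202 to 7189 CPM (median 6670), with means of 31.4 and 387 in immune females and males and up to 294 in keratinocytes. Mmp3, stromelysin, had 60.9 to 195 CPM and at most 27.2 elsewhere. Neither overlapped with another population, and Mmp2 was not called against keratinocytes by limma voom (adjusted p = 0.451). Mmp9, the gelatinase of neutrophils and macrophages, was at 0.0629 to 0.334 CPM in fibroblasts and 0.954 to 246 in immune cells (-9.01 ± 1.19). The inhibitor Timp3, which stays bound to matrix, had 913 to 3285 CPM and was higher than both (4.24 ± 0.73 and 3.24 ± 0.75). The inhibitor Timp1 did not pass the test against immune cells (1.18 ± 0.80, adjusted p = 0.377).

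Hyaluronan genes were called in both directions. Of 22 listed genes, 15 were tested: 5 were higher than both and 2 lower than both (13.3%, against 3.61% of all genes). Lower than in immune cells were 5 (33.3%, against 13.3%), and lower than in keratinocytes were 2 (13.3%, against 10.5%). The 2 lower than both were Cd44 and Hmmr, a hyaluronan receptor and a hyaluronan-binding protein of dividing cells. The median log2 fold change of the list was -0.29 over immune cells and -0.21 over keratinocytes. Has1, a hyaluronan synthase, had 2962 CPM in the lowest, 4782 in the median and 7717 in the highest fibroblast library, means of 42.4 and 241 in immune females and males, and at most 1.04 in keratinocytes. Has2, another synthase, had 28.9 to 217 CPM and 1 keratinocyte count in all. The hyaluronan-binding Tnfaip6 had 394 to 1451 CPM, Itih5, whose family joins hyaluronan, 432 to 1075, and Ugdh, which makes a precursor sugar, 742 to 1348. None of the 5 overlapped with immune or keratinocyte libraries. The receptors Lyve1 and Stab1, which macrophages and lymphatic vessels carry, were lower than in immune cells, with fibroblast medians of 4.53 and 1.65 CPM against 1974 and 852. Limma voom did not call Has1 (adjusted p = 0.207 and 0.556) or Lyve1 (adjusted p = 0.129 against immune cells).

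Growth factor ligands were higher than both in 20 of 51 tested members of 54. Lower than both was 1 (1.96%, against 3.61% of all genes). The list's median log2 fold change was 3.09 over immune cells and 5.05 over keratinocytes (3.85 with genes at 0 set to their bound). Fgf7, the keratinocyte growth factor that dermal cells supply to the epidermis, had 119 to 263 CPM in fibroblasts and a keratinocyte median of 0.0756 (7.13 ± 1.21 and 7.66 ± 1.42). Angptl1, an angiopoietin-like secreted protein, had 122 to 610.2 CPM and 1 count in keratinocytes. Both were above every other library in all 8 fibroblast libraries. Pdgfd and Bmp5, a platelet-derived growth factor and a bone morphogenetic protein, had fibroblast ranges of 4.48 to 124 and 7.21 to 121 CPM and were higher than both, but overlapped with immune males, which reached 6.01 and 14.7. Igf1, insulin-like growth factor, had 949.9 to 2256 CPM in fibroblasts and 108 to 315 in immune cells, with no overlap (2.49 ± 0.29). Areg, an epidermal growth factor receptor ligand, was lower than in immune cells, at most 0.533 CPM against 7.7 to 53.7.

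Of 8 insulin-like growth factor binding proteins, 6 were tested and 4 were higher than both. Each of the 4 had all fibroblast libraries above all others, against 2.68% of all genes. Over the 6, the median log2 fold change was 3.33 over immune cells and 3.27 over keratinocytes. The 4 higher ones were Igfbp4 (989.7 to 2801 CPM), Igfbp5 (322 to 976), Igfbp6 (876 to 1832) and Igfbp7 (857 to 3687). The difference was smallest for Igfbp4, at log2 2.09 ± 0.55 over immune cells and 1.92 ± 0.58 over keratinocytes, and scaling by plain library size ended the latter call (adjusted p = 0.0939). Igfbp2 went the other way against keratinocytes, at 0 to 64.8 CPM in fibroblasts and 335 to 1334 in keratinocytes (-5.83 ± 1.22).

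WNT, hedgehog and bone morphogenetic protein ligands and their modulators were higher than both in 13 of 36 tested members of 48, with a median log2 fold change of 5.47 over immune cells and 4.96 over keratinocytes (3.71 with genes at 0 set to their bound). The 13 included Wnt2, Wnt9a, Sfrp2, Sfrp4, Frzb, Dkk2, Rspo1, Chrd, Fstl1, Fstl3, Twsg1 and Nbl1, of which Wnt2 and Wnt9a are ligands. Sfrp4, a secreted WNT antagonist, had 8.89 to 279.6 CPM (median 164), and immune males reached 58.5. Chrd, the bone morphogenetic protein antagonist chordin, had a fibroblast median of 73.9 CPM with a lowest library of 0.413, and Frzb, another WNT antagonist, had a median of 3.27 and a highest value of 125. With the sexes pooled, Chrd was not called against immune cells (adjusted p = 0.0634), and limma voom did not call Frzb against keratinocytes (adjusted p = 0.214). The WNT ligands Wnt3 and Wnt4 had no count in any fibroblast library and medians of 110 and 9.46 CPM in keratinocytes, at least 423-fold and 96.7-fold lower in fibroblasts.

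Chemokines and cytokines divided between the populations. Of 41 tested genes of 44, 6 were higher than both, 18 were lower than in immune cells (43.9%, against 13.3% of all genes) and 26 were higher than in keratinocytes (63.4%, against 20.6%). A call over keratinocytes need not mean a high fibroblast level, since 8 of 12 mast cell markers (66.7%) also had one. The list's median log2 fold change was -1.32 over immune cells and 4.74 over keratinocytes (4.16 with genes at 0 set to their bound). Ccl11, the eosinophil attractant eotaxin, had 1250, 2412 and 4113 CPM in the lowest, median and highest fibroblast library, with means of 10.1 and 70.9 in immune females and males and at most 0.324 in keratinocytes. Cxcl12, which holds CXCR4-bearing cells in tissues, had 1795 to 6404 CPM, with 56.6 and 318. The inflammatory cytokine Il6 had 306 to 978 CPM, with 63.9 and 106 (2.67 ± 0.49). Cxcl1, a neutrophil attractant, had 1779 to 5646 CPM, with 464 and 673 (2.62 ± 0.74), and Rarres2, which encodes the attractant chemerin, had 103 to 378. In these 5 genes all fibroblast libraries lay above all others, and the log2 fold change of Ccl11 over immune cells was 6.50 ± 0.51. Ccl24, another eotaxin, was at 0.543 to 5.17 CPM in fibroblasts and 349.5 to 896 in immune cells (-8.78 ± 0.58). Cxcl1 was not called against keratinocytes by limma voom (adjusted p = 0.357).

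Complement genes were also called in both directions against immune cells. Of 26 tested genes of 32, 9 were higher than both. Against immune cells 10 were lower (38.5%, against 13.3% of all genes), and against keratinocytes 21 were higher (80.8%, against 20.6%). Across complement genes, the median log2 fold change was -0.10 over immune cells and 5.02 over keratinocytes (4.80 with genes at 0 set to their bound). The 9 included the proteases that start the classical cascade, their inhibitor and the central component. Serping1, the C1 inhibitor, had 5273, 7012 and 11920 CPM in the lowest, median and highest fibroblast library, with means of 45.4 and 707 in immune females and males and at most 6.11 in keratinocytes (5.38 ± 0.35 and 12.10 ± 0.51). The proteases C1s and C1ra had 535 to 2069 and 218 to 926 CPM, and C3 had 373 to 2227. None of these 4 overlapped with another population. C1qa, a subunit of the recognition molecule made by macrophages, had 2.39 to 18.9 CPM in fibroblasts and 1644 to 4046 in immune cells (-8.74 ± 0.44). Vsig4, a complement receptor of macrophages, had at most 2.89 CPM against 58.1 to 819.5. Despite these low levels, C1qa and Vsig4 were among the 21 genes called higher than in keratinocytes. Of 19 macrophage and dendritic cell markers, 8 (42.1%) were also called higher than there. Limma voom called neither Serping1 (adjusted p = 0.148 and 0.64) nor C1qa against immune cells (adjusted p = 0.0945).

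Receptors and surface proteins were higher than both in 32 of 68 tested members of 72. In 25 of the 68 all fibroblast libraries lay above all others, against 2.68% of all genes. The list's log2 fold changes had a median of 2.98 over immune cells and 4.68 over keratinocytes (4.50 with genes at 0 set to their bound). Scara5, a ferritin receptor, had 1635 to 4156 CPM (median 2333), means of 2.07 and 178 in immune females and males, and 7 counts in all keratinocyte libraries. Agtr1a, the angiotensin II receptor, had 66.5 to 269.6 CPM, against at most 10 in immune cells. Gfra1, the receptor of glial cell line-derived neurotrophic factor, had 1.76 to 392 CPM (median 309.9), and its lowest fibroblast library lay below the highest immune male one (27.9). Cd34, a surface protein of stem cells, vessels and many fibroblasts, had 2488 to 4027 CPM, and Pdgfrb, the other platelet-derived growth factor receptor, 236 to 612, both above every other library. Thy1 did not pass the test in either comparison (2.06 ± 0.80, adjusted p = 0.0717, and 0.67 ± 0.81, adjusted p = 0.608). Lower than in immune cells were Il1rl1, the interleukin 33 receptor, at 0.136 to 2.14 CPM, and lower than in keratinocytes was Sdc1, a syndecan, at 10.2 to 128 CPM.

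Transcription factors of the mesenchyme were higher than both in 22 of 46 tested members of 55. Lower than both were 2 (4.35%, against 3.61% of all genes). The list's median log2 fold change was 3.15 over immune cells and 5.62 over keratinocytes (4.71 with genes at 0 set to their bound). Twist1, Twist2, Tbx18 and Osr2 separated all fibroblast libraries from all others. Twist2, a dermal factor, had 29.8 to 134 CPM (median 99.2) and at most 7.42 in immune cells, and Twist1 had 4.09 to 35.3 CPM with 3 counts over all immune libraries, a ratio of 596 with a counting interval of 204 to 2890. Tbx18 had 60.3 to 219.9 CPM. Ebf2, a factor of mesenchymal and adipose precursors, had 23.4 to 357 CPM, its lowest library within the range of immune males. Tbx15 had 88.8 to 568 CPM and no keratinocyte count (at least 392-fold higher), and Prrx1, a factor of limb mesenchyme, had 147 to 543 CPM. Trp63, the master factor of stratified epithelia, was at 288 to 596 CPM in keratinocytes and at most 2.58 in fibroblasts (-12.49 ± 1.89).

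Limb position genes were divided between fibroblasts and keratinocytes of the paw. Of 46 listed genes, 20 had no count in any fibroblast library and 30 were tested, of which 6 were higher than both and 10 were lower than in keratinocytes (33.3%, against 10.5% of all genes). The median log2 fold change was 2.29 over immune cells and -0.32 over keratinocytes. The 6 were Tbx4, which marks the hindlimb, the distal limb genes Hoxa13 and Hoxd13, Hoxd10, Hoxd11 and Hand2. The 6 genes varied widely between fibroblast libraries, Hoxd10 from 0 to 31.9 CPM and Hoxa13 from 0 to 30.5. Pooling the sexes ended the calls of Hoxd11 and Hand2 against immune cells (adjusted p = 0.12 and 0.363). The call of Hoxd10 was lost by leaving out any 1 of 9 libraries (adjusted p = 0.0543 to 0.113). These were fibroblast female 1 or male 2, an immune female, or immune male 1, 3 or 4. Leaving out 1 library also ended that of Hoxd11 in 8 cases (adjusted p up to 0.0596). Hoxd13 had 0.2 CPM in the lowest, 32.1 in the median and 156 in the highest fibroblast library, at most 4.01 in immune cells, and no keratinocyte count. Tbx4 had 0.178, 28.1 and 182 CPM, at most 4.82 in immune cells, and no keratinocyte count. In each gene 1 fibroblast library, female 4 for Hoxd13 and male 4 for Tbx4, lay within the immune range, and the other 7 lay above it. The mean levels were at least 81.1-fold (Hoxd13) and 80-fold (Tbx4) higher than in keratinocytes, and at least 50.9-fold without fibroblast male 4 and 42.7-fold without fibroblast male 1, the highest library of each. Hoxa13 had a fibroblast median of 2.19 CPM and lost its call against immune cells without fibroblast male 2 (log2 4.20, adjusted p = 0.0701).

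Most genes of the HoxC cluster were counted in keratinocytes and not in fibroblasts. Hoxc5, Hoxc6, Hoxc10, Hoxc11, Hoxc12 and Hoxc13 had no count in any of the 16 fibroblast and immune libraries and were counted in keratinocytes, where Hoxc10 had a median of 8.45 and a highest value of 18.4 CPM. Hoxc10 was at least 32-fold lower in fibroblasts. Hoxc13, a hair and nail factor, had 0 to 49.5 CPM in keratinocytes and was counted in 3 of the 7 libraries. Leaving out keratinocyte female 2 and male 2, or fibroblast males 1 and 4, ended the Hoxc13 call (adjusted p = 1 and 0.056). Hoxc9 was counted in all 3 populations, at up to 0.1887 CPM in fibroblasts, 4.607 in immune cells and 44.41 in keratinocytes. Hoxc4 and Hoxc8 reached 3.139 and 1.721 CPM in immune males, with no fibroblast count, and at most 0.1299 CPM (Hoxc4) and no count (Hoxc8) in keratinocytes. The forelimb gene Tbx5 had no fibroblast count, and Pitx1, a hindlimb gene, had none in any library. Hox clusters hold overlapping and antisense transcripts, and the sources used here do not say whether the counting used strand, so reads of such neighbours cannot be told apart.

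**Figure D5:**
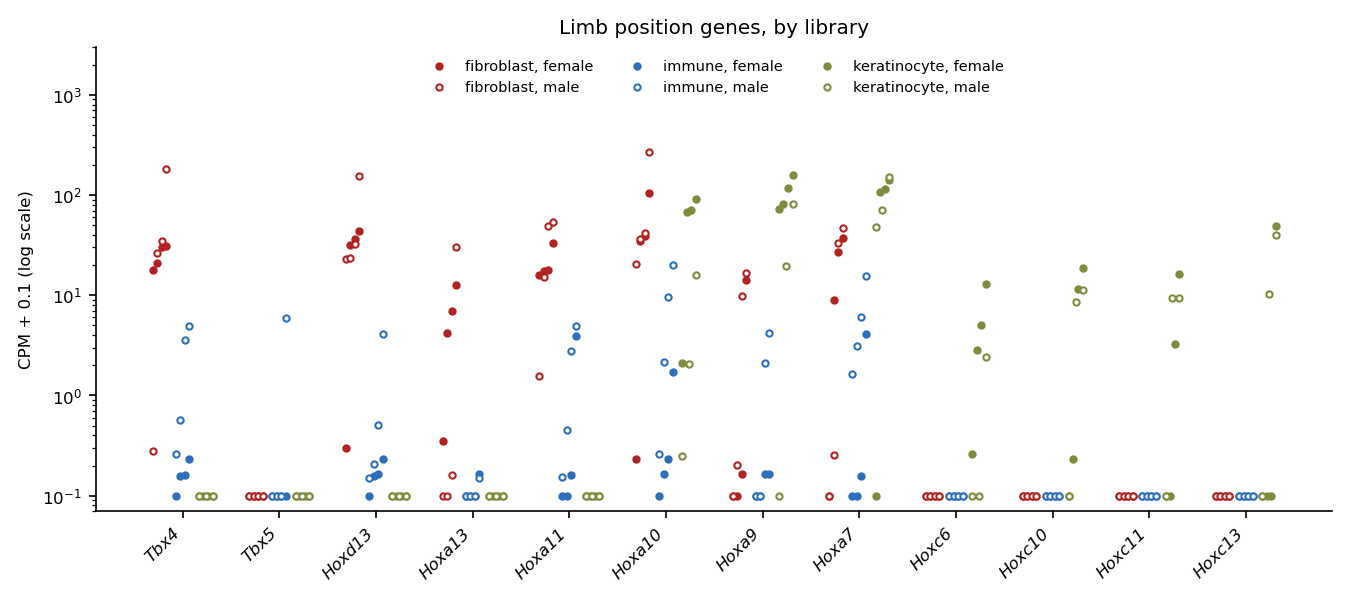
Level of 12 limb position genes (x axis) in each vehicle library (y axis, CPM + 0.1, log scale, so that no count is drawn at 0.1), coloured by population, filled for females and open for males. Tbx4, Hoxd13 and Hoxa11 have no keratinocyte count, whereas Hoxc6, Hoxc10, Hoxc11 and Hoxc13 have counts in keratinocytes only.

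Axon guidance and neurotrophic factors were higher than both in 10 of 45 tested members of 55, Slit3 among them, with a median log2 fold change of 2.81 over immune cells and 1.42 over keratinocytes. Sema3b, a repellent of axons, had 8.21 to 104 CPM in fibroblasts, no immune female count, and a mean of 22.8 in immune males. Epha3, an ephrin receptor, had no count in any immune or keratinocyte library and a fibroblast median of 5.97 CPM, at least 39.5-fold above immune cells and 12.9-fold above keratinocytes (25.6-fold and 8.37-fold without fibroblast female 3). The guidance protein Reln had a fibroblast median of 21.9 CPM. These 3 genes varied between fibroblast libraries, and Epha3 and Reln had no count in the lowest. With the sexes pooled, Sema3b was not called against immune cells (adjusted p = 0.402).

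Prostaglandin and leukotriene genes were higher than both in 7 of 27 tested members of 28. Lower than in immune cells were 8 (29.6%, against 13.3% of all genes). The median log2 fold change was -0.34 over immune cells and 2.92 over keratinocytes (2.76 with genes at 0 set to their bound). Enpp2, which makes lysophosphatidic acid, had 927 to 4087 CPM and was above every other library. Ptgis, prostacyclin synthase, had a fibroblast median of 101 CPM and up to 70.4 in immune males, and the fit with pooled sexes did not call it (adjusted p = 0.237). The leukotriene enzymes Alox5 and Ltc4s had at most 4.34 and 1.55 CPM in fibroblasts, against 311 to 774 and 92.3 to 258 in immune cells (-8.62 ± 0.58 and -8.74 ± 0.97). Among 33 retinoid and lipid handling genes, all tested, 12 were higher than both and 2 were lower than both (6.06%, against 3.61% of all genes). This list's median log2 fold change was 1.97 over immune cells and 1.10 over keratinocytes. Apod, a lipocalin, had 5473 to 20050 CPM (median 8461), with 57.6 and 691 in immune females and males. Aldh1a1, which makes retinoic acid, had 35.5 to 559 CPM. Apod and Aldh1a1 did not overlap with other populations, and limma voom did not call Apod (adjusted p = 0.295 and 0.761). Cd36, a fatty acid receptor, was lower than in immune cells (2.04 to 41.7 against 904 to 2281 CPM), and Apoc1 was lower than in keratinocytes (-12.25 ± 1.30).

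Markers that subdivide dermal fibroblasts were higher than both in 17 of 27 tested members of 32, with a median log2 fold change of 5.13 over immune cells and 8.59 over keratinocytes (8.25 with genes at 0 set to their bound). Inmt, a methyltransferase, had 586 to 3054 CPM in fibroblasts and no overlap with other libraries. Coch, cochlin, spanned 10.2 to 4158 CPM and Crabp1, of the papillary dermis, 0.103 to 79.3, so that both differed far more between fibroblast libraries than Inmt did. The tendon-associated genes Thbs4, Chad and Fmod spanned 9.51 to 2937, 30.1 to 1921 and 266 to 6235 CPM, and Comp, a cartilage and tendon protein, 431 to 1134. All 4 were higher than both populations, out of 9 tendon, cartilage and bone markers tested. The contractile list stood nearer to all genes: 5 of 28 were higher than both, and its median log2 fold change was 0.18 over immune cells and 0.51 over keratinocytes. Flnc, a filamin, had 53 to 281 CPM, and Cald1, caldesmon, 247 to 709, both above all other libraries. Acta2, the smooth muscle actin of myofibroblasts, did not pass the test (-1.10 ± 0.85, adjusted p = 0.457, and 0.32 ± 0.87, adjusted p = 0.86). Vim, vimentin, did not pass it against immune cells (-0.38 ± 0.42, adjusted p = 0.651) and was higher than in keratinocytes (3.81 ± 0.51), which limma voom did not call (adjusted p = 0.0768). The latter did not call Coch and Thbs4 against keratinocytes either (adjusted p = 0.0901 and 0.109). Pooling the sexes ended the call of Flnc against immune cells (adjusted p = 0.0931).

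Immediate early genes, which cells switch on within minutes of a stimulus and which cell isolation itself can raise, were high in fibroblasts. Of 21 genes, all tested, 5 were higher than both and none was lower than either. Higher than in keratinocytes were 20 (95.2%, against 20.6% of all genes). The median log2 fold change was 0.65 over immune cells and 3.54 over keratinocytes. Their summed level was 41200 to 77450 CPM in fibroblasts, 18770 to 27300 in immune females, 21110 to 25330 in immune males and 2015 to 7110 in keratinocytes. Fos, a subunit of the AP-1 transcription factor, had 11090, 13270 and 20790 CPM in the lowest, median and highest fibroblast library, 2333 to 4466 in immune cells and 90.8 to 851 in keratinocytes (2.08 ± 0.26 and 4.94 ± 0.33). Egr1, a zinc finger factor, had 4565 to 12200 CPM (2.01 ± 0.26 and 3.88 ± 0.30), and Jun, the partner of Fos, 3524 to 6716 (1.62 ± 0.25 and 4.62 ± 0.30). Zfp36, which destabilises cytokine messenger RNAs, had 4987 to 9620 CPM, and Myc 1166 to 2820. In these 5 genes the fibroblast libraries lay above all 15 others. The part of the cell isolation in these levels was not tested. Limma voom did not call Fos, Egr1 and Zfp36 against keratinocytes (adjusted p = 0.181, 0.279 and 0.304).

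The upstream sequence of Fos, shown because Fos was above every other library in all fibroblast libraries but belongs to genes switched on by stimuli, covers the 250 bases before its start in RefSeq on build GRCm38.p6 (chr12:85473640-85473889, plus strand).

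Fos: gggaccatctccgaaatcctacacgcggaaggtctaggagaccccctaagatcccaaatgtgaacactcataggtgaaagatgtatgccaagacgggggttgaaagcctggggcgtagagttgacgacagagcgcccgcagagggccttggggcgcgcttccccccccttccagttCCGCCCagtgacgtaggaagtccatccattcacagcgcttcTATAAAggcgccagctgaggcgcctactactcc

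Capitals mark CCGCCC, which is GGGCGG on the opposite strand, at 74 to 69 bases before the start, and TATAAA (the TATA box) at 33 to 28, with no overlap between them. The window differs from that of Col1a2 in holding TATAAA and no CCAAT, and its bases are 58.4% G or C against 62.0%.

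Genes lower in fibroblasts than in both populations included those of dividing cells. Of 18 mitosis genes, all tested, 13 were lower than both (72.2%, against 3.61% of all genes). Lower than in keratinocytes were 17 (94.4%, against 10.5%). Mki67, a marker of cells in division, had at most 0.62 CPM in fibroblasts, 46.3 to 114 in immune cells and 69.8 to 523 in keratinocytes (-8.28 ± 0.70 and -9.71 ± 0.75). Birc5 and Cenpf, of the mitotic spindle and centromere, had at most 0.207 and 0.0889 CPM in fibroblasts. The mitosis genes summed to 0.5497 to 140.4 CPM over the fibroblast libraries, 142.8 to 267.3 over the immune ones and 807.4 to 1945 over the keratinocyte ones. The highest fibroblast sum, in male 1, thus lay just below the lowest immune sum. Among the 10 genes furthest below both, Ucp2, a mitochondrial carrier, was at 1.9 to 40.3 CPM in fibroblasts, 925 to 1844 in immune cells and 785 to 2715 in keratinocytes. The keratins Krt14 and Krt5 were also among them, with keratinocyte levels of 7878 to 14090 and 3308 to 6264 CPM and immune male means of 450.2 and 194, against at most 1.24 and 0.827 in fibroblasts. The other 7 were Gata3, Slpi, Stxbp2, Plbd1, Rbm47, Aim1 and Mki67. Keratinocyte RNA was uneven in the immune libraries: basal keratinocyte markers summed to 27.97 to 101.0 CPM in females. In males 1 to 4 they summed to 92.14, 570.8, 307.7 and 2629 CPM. The part of such RNA in the keratin calls was not tested. In all 8 fibroblast libraries the levels of 65 genes (0.461%) were below all 15 others, and 54 of these were called lower than both. Limma voom did not call Krt14 (adjusted p = 0.368 and 0.0792).

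The ends of the single comparisons held further genes. Against immune cells the highest were Ror2, Xpnpep2, Lrrc15, Thsd7a and Cilp2, among genes whose fibroblast mean reached 50 CPM. Ror2, a WNT5A receptor, had 0.183 to 309 CPM (median 92.4) against at most 0.211 in immune cells (10.33 ± 1.92). Its call against keratinocytes (4.13 ± 1.57, adjusted p = 0.0474) was lost in 23 of the alternatives, including the removal of single libraries. Lrrc15, a surface protein of activated fibroblasts, had 0.154 to 238 CPM and at most 0.26 in immune cells. Among those furthest below immune cells were Faim3, Gna15, Retnlg and Cldn5, of lymphoid, myeloid and vascular cells, with at most 0.827 CPM in any fibroblast library. Faim3 was no longer called without immune female 2 (adjusted p = 1).

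Against keratinocytes the highest were Gpr133, Lrrn4cl, Scara5, Ptx3 and Has1. Gpr133, an adhesion receptor, had 705 to 1502 CPM and no keratinocyte count, at least 1870-fold higher, and Ptx3, a pentraxin of innate immunity, had 131 to 737 CPM and none either (at least 800-fold). Lrrn4cl had 1109 to 2796 CPM and 1 keratinocyte count. Lowest were Mt4, Fam25c, Krt17, Defb6 and Aqp3, genes of the epidermis. Mt4, Fam25c and Defb6 had no count in any fibroblast library. They were at least 2690-fold, 2590-fold and 2270-fold lower than in keratinocytes, and Defb6 at least 1370-fold without keratinocyte male 2.

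Many calls of named genes were lost with 1 sex alone. Against immune cells with male libraries alone, of 225 calls of named genes that this fit could test again, 102 were lost, against 19 lost and 4 reversed of 206 with female libraries alone. Against keratinocytes, 41 of 213 were lost with males alone and 33 of 198 with females alone, where 2 reversed. Those lost in males included Mmp3 (adjusted p = 0.127), Fgf7 (0.175), Igfbp7 (0.157), Cxcl1 (0.252), C3 (0.282), Enpp2 (0.113), Tbx4 (0.193) and Myc (0.228), all of which were called with female libraries alone. Lost in females were Areg against immune cells (adjusted p = 0.0641) and, against keratinocytes, Col14a1 (0.187), Fkbp10 (0.176), Igfbp2 (0.0655), Sdc1 (0.058), Timp3 (0.0833), Flnc (0.252) and Cald1 (0.0787).

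Few genes were called between fibroblasts of females and males. Of 14104 genes, 2 were higher in female fibroblasts and 2 were lower (0.0142% in each direction), and 1268 had an unadjusted p under 0.05. The 2 lower ones, Eif2s3y and Ddx3y, lie on the Y chromosome, with female means of 0.178 and 0.192 CPM and male means of 131 and 126. Xist, the RNA that silences an X chromosome, was at a mean of 596 CPM in female and 1.6 in male fibroblasts. In their group means, these 3 genes follow the labelled sex. The male libraries were uneven, however. The 5 sex-linked genes listed summed to 13.12 CPM in fibroblast male 1, against 306.5, 354.8 and 652.7 in males 2, 3 and 4. Rnaseh2c, a subunit of ribonuclease H2, was the fourth, with female and male means of 32 and 0.0597 CPM and a lowest library at 0. In a fit of fibroblast libraries alone 1 gene was called, limma voom called 53, and DESeq2 called 624.

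The difference between fibroblasts and immune cells itself depended on sex in 68 genes (0.482%), and 1340 had an unadjusted p under 0.05. In 64 of them the log2 difference, fibroblast minus immune, was higher in females than in males. In all 64 the mean level of immune males was above that of immune females. Of the 64, 49 were called higher in fibroblasts than in immune cells, and 42 were among the 765 genes higher than both. Called lower than both was 1. The markers belonged to the 42, with an interaction of 5.19 ± 0.71 log2 for Col1a2, 3.90 ± 0.88 for Dcn and 5.64 ± 0.88 for Dpt (adjusted p = 0.000421, 0.0436 and 0.00228). The opposite sign was seen in 4 genes: Arhgdib, which is abundant in blood cells, and the mast cell proteases Mcpt4, Cma1 and Tpsb2. The 12 mast cell markers summed to 7420 to 9557 CPM in immune females and 1864 to 3370 in immune males. Leaving out fibroblast males 1 and 4 reduced the 68 genes to 8, and limma voom and DESeq2 called 290 and 719.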

How the data were processed

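The deposited files hold raw read counts per gene symbol for 22609 symbols. Per the submitters' processing notes, the authors used bcl2fastq, TopHat2, build mm9 and HTSeq. The sources used here do not give their versions, the annotation or whether counting used strand. Per the labels' protocols, libraries were stranded poly(A) mRNA of about 500 ng RNA, read as 50 bp single ends. The lines of unassigned reads were left out, which left 45.2 to 52.3% of the reads of a fibroblast library and 19.3 to 24.2% of a keratinocyte library in genes. From the counts, 23 vehicle libraries in 6 groups (population by sex) were fitted together with edgeR 4.0.16 (R 4.3.3): filterByExpr left 14104 genes, library sizes were scaled by TMM, and contrasts were tested two-sided with the robust quasi-likelihood F-test and Benjamini-Hochberg adjustment at 0.05. The 12 paclitaxel libraries were left out. Genes with no count in a group were set against a floor of 3 counts per library, and ratios on 1 to 3 counts carry exact 95% intervals for counting error only.

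Named were the 3 markers, 20 genes highest and 10 lowest by the smaller difference of both comparisons, 5 per direction of each comparison, and up to 6 higher and 3 lower genes per list, each passing a minimum level. Timp1, Timp3, Igf1, Cd34, Pdgfrb, Thy1, Prrx1, Tbx15, Acta2, Vim, Pmp22, Sox10, Cd44, Hoxc4, Hoxc5, Hoxc8 and Hoxc9 were added after their values were seen. Some genes that meet these rules are not reported here. The libraries, gene lists and tests were chosen with earlier results of these data known. No 2 libraries were alike enough to be 1 library deposited in duplicate. On simulated counts at these sizes, 44% of genes changed 32-fold and 16.67% of those changed 8-fold against immune cells were called, and 42% and 12.5% against keratinocytes, over 13930 genes. Of genes changed 4-fold, 4% were called against immune cells and 2% against keratinocytes, and of those changed 2-fold 0% in both. A gene that was not called may thus still differ. Alternatives were RLE scaling, plain library sizes, no filter, limma voom 3.58.1, DESeq2 1.42.0, pooled sexes, 1 sex or 1 pair of populations alone, a replicate block, stricter thresholds and leaving out each library. Leaving out fibroblast males 1 and 4, or keratinocyte female 2 and male 2, was added after seeing the data.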

Additional observations from a re-analysis of the deposited data

Results flagged for a closer look

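In 6 of the 20 genes highest in fibroblasts, 1 of the 4 libraries of a sex lay far above the other 3, by more than Dixon's 95% limit for 4 values. Of 46 groups checked in 23 genes, chance alone would flag about 1 in 20. Fibroblast male 1 was the high library for Slit3, at 1480 CPM with the other males at 448 to 515, for Gdf10, at 2070 with 634 to 698, and for Bicc1, at 840 with 270 to 310. Its TMM factor, 0.582, was the lowest of the 23 libraries, against 0.692 to 0.867 in the other fibroblast males. A low factor raises the CPM of a library, and the part of the scaling in these 3 flags was not tested. Fibroblast female 4 was the high library for Itga11, at 570 CPM with the other females at 179 to 228, for Dclk1, at 200 with 150 to 156, and for Ccdc48, at 196 with 51.4 to 58.3. All 6 genes stayed called against both populations when either library was left out.

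The excess of fibroblasts over immune cells differed between the sexes, by an interaction term of edgeR's quasi-likelihood test, in all 3 markers and 6 of the 20 genes. On the log2 scale the excess was larger in females by 5.19 for Col1a2, 3.90 for Dcn, 5.64 for Dpt, 6.50 for Slit3, 5.77 for Itga11, 5.51 for Gdf10, 5.03 for Bicc1, 6.29 for Osr2 and 4.77 for Pdgfra. In these 9 genes the mean of immune males was above that of immune females, as it was for the summed fibroblast markers, whose part in these differences was not tested.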

How the results depend on the processing

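Leaving out each library in turn gave 689 to 794 genes higher than both populations, 443 to 537 lower than both, 960 to 1351 higher and 1652 to 1961 lower than immune cells, 2504 to 3048 higher and 1342 to 1513 lower than keratinocytes, 3 to 7 between the sexes and 37 to 87 with an interaction. In the same order, female libraries alone gave 400, 192, 675, 863, 1423 and 748, male libraries alone 179, 135, 217, 691, 1474 and 538, and an adjusted p under 0.01 gave 472, 235, 666, 1146, 1756 and 881, with 2 between the sexes and 24 interactions. Pooled sexes gave 442 genes higher than both, 687 higher and 1221 lower than immune cells. DESeq2 gave 790 lower than both, 624 between the sexes and 719 interactions. Limma voom gave 1788 higher and 3033 lower than immune cells, 53 between the sexes and 290 interactions. There were 208 interactions with fibroblast and immune libraries alone, 8 without fibroblast males 1 and 4, and 1 sex difference with fibroblast libraries alone. No clear pairing by replicate number was seen. The 55 same-numbered pairs correlated at -0.039 to 0.08 (median 0.004) and the 165 others at -0.109 to 0.064 (median -0.001). Of 23 libraries, 9 correlated best with their own number. Such a check cannot exclude that same-numbered libraries share a mouse or a day of preparation. With the replicate block, 648 genes were higher than both, 381 lower than both, and 2 differed between the sexes. Plain library sizes moved the median log2 difference by -0.30 over immune cells and -0.59 over keratinocytes, and the share called higher from 37.4% to 31.4% and from 66.3% to 53.4%. In males alone the share against immune cells was 23.9%.

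Of 12258 checks of named genes with 1 library left out, 11989 kept their direction and their side of the threshold, and 5660 of 6139 checks under other settings did. Limma voom lost 25 of 236 named calls against immune cells and 47 of 230 against keratinocytes, Col1a2, Col1a1 and Col3a1 among them, and the cause was not tested. Against keratinocytes, Foxp1 turned to 0.029 without keratinocyte female 2 and male 2 and to 0.066 with limma voom, and leaving out 1 library gave -1.791 (keratinocyte male 1) to 0.012 (keratinocyte male 2). With female libraries alone, Rnaseh2c turned to 0.36, Mcam to 3.40, Trp63 to 0.16 and Apoc1 to 0.75 against immune cells, and C1qa to -0.20 and Mrc1 to -0.23 against keratinocytes. The keratinocyte libraries, at 988712 to 11115207 counts, limit the differences seen in low genes, and female 2 has the highest 3-count floor of all 23 libraries, 2.036 CPM against 0.1519 to 0.391.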
